A study of Mus musculus with 3 samples.

Results

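The T cell receptor alpha V genes of the mouse were described in the RNA of 3 normal thymi. They were taken as every gene whose GENCODE M21 symbol begins with Trav, the dual Trav-dv names included, which gave 128 of the 52636 gene identifiers in the count tables. Of these, 108 are annotated as TR_V_gene and 20 as TR_V_pseudogene. The study set lymphomas lacking Cic, the gene of the transcriptional repressor Capicua, against normal thymus of control littermates; the lymphomas are not analysed here. All 3 thymi came from C57BL/6 mice labelled Cic flox/flox that had been given tamoxifen, so both the floxed alleles and the drug were shared by every sample, and the labels give neither an age nor a Cre line for them. The labels name no animal for each library, so any p-value below measures only how far the 3 samples differ, part of which may be technical. With 1 group there was no contrast, and the values are levels with their spread.

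The alpha chain of the T cell receptor is assembled in the thymus. In double-positive thymocytes the RAG recombinase joins 1 V gene to 1 J segment, and the joined exon is spliced to the constant region encoded by Trac. V genes close to the J segments are known to be used in the first joins, and later rounds on the same chromosome reach V genes farther away until a chain is selected. Dual genes, written Trav-dv, can also be joined to the delta segments that lie inside the alpha locus. In this strain long stretches of the V cluster occur as copies, and the letters d and n in a gene name mark those copies, so that Trav14-1, Trav14d-1 and Trav14n-1 are near-identical genes at different places.

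All 128 genes lay on chromosome 14, on the plus strand, from Trav1 at position 52427928 to the end of Trav23 at position 53977678 (GRCm38). Trav1 ended 1792 kb before the start of Trac and Trav23 ended 243 kb before it. The genes belong to 23 families, of which 9 have a single member here. The V gene of an alpha chain ends just past a conserved cysteine codon, where the join to J is made. Among the 108 members with an annotated coding sequence, all 108 held an in-frame cysteine codon within their last 30 coding bases, and the stretches from that codon to the end took 45 distinct forms of 6 to 19 bases. The last 30 coding bases of the 5 members with the highest mean level are shown because they carry the germline part of the third complementarity-determining region. They are written 5′ to 3′ with the cysteine codon in capitals and read from the GENCODE M21 transcripts:
Trav14-1: actcagccacctacttcTGTgcagcaagtg
Trav21-dv12: cggctgtgtaccacTGTatcctgagagtag
Trav14-2: actcagccacctacttcTGTgcagcaagtg
Trav3-3: actcagccgcgtacttcTGCgcagtcagtg
Trav17: ctcagccaagtacttcTGTgcactggaggg
Trav14-1 and Trav14-2 shared all 30 bases, and Trav3-3 used the codon TGC where the others shown used TGT.

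Likeness among the copies bears on every value below, since the deposited counts hold only reads that map to 1 place. The same 120 coding bases are therefore shown for the 3 copies of Trav14-1, the member with the most reads. They lie at chr14:53554439-53554558 for Trav14-1, chr14:52856047-52856166 for Trav14d-1 and chr14:53167059-53167178 for Trav14n-1, all on the plus strand of GRCm38, and capitals mark differences from Trav14-1:
Trav14-1: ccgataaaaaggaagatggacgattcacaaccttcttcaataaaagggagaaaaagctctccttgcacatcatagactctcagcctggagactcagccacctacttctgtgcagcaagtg
Trav14d-1: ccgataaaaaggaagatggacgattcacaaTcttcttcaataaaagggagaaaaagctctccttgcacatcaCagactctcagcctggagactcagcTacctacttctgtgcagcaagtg
Trav14n-1: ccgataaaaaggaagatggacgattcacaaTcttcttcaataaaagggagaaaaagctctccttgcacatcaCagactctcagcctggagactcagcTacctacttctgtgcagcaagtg
Over this window the d and n copies each differed from Trav14-1 at 3 bases and had the same letters as each other. Trav14-1 was counted at 172, 155 and 126 reads in thymus 1, 2 and 3, whereas Trav14d-1 and Trav14n-1 were at 0 in all 3.

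Each library held 25408442 to 30414788 reads assigned to genes on the stranded column used. Between 13.95% and 15.55% of all reads mapped to several places and were not counted for any gene. The thymocyte markers Cd4, Cd8a, Cd8b1, Cd3e, Ptcra and Rag1 summed to between 8438 and 8582 CPM (reads of a gene after scaling every library to the same fixed total), and all 6 were above 1 CPM. Markers of other cells were also present: B cell markers summed to 1239 to 1281 CPM, macrophage and dendritic cell markers to 984 to 1219 CPM, thymic epithelial markers to 1535 to 1734 CPM, mature T cell markers to 415 to 444 CPM and gamma-delta T cell markers to 219 to 254 CPM. The red cell markers Hbb-bs and Alas2 summed to 690, 31.2 and 152 CPM in the 3 thymi. The part of these cells in the V gene levels was not tested. In such bulk samples fewer cells of a type and less RNA per cell cannot be told apart.

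The V genes together were counted at a nearly constant level after scaling. They received 2409, 2310 and 1879 reads, which is 79.1, 78.6 and 76.1 CPM after scaling by trimmed mean of M-values (TMM), a mean of 77.9 ± 1.59 CPM (SD, n = 3). Thymus 3 had the lowest sum and also the smallest library, and the coefficient of variation of the sum was 2.04%. Exact Poisson intervals on the 3 sums ran from 72.7 to 82.3 CPM and overlapped one another.

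Trac, the constant region to which V exons joined to an alpha J segment are spliced, was counted at 10986, 11097 and 7903 reads, or 361, 378 and 320 CPM. The V gene reads were 21.9%, 20.8% and 23.8% of the Trac reads, a mean of 22.2% ± 1.49 (SD, n = 3). Per kilobase of exon the members summed to 205, 205 and 199 CPM, against 386, 404 and 342 CPM for Trac, a ratio of 0.54 ± 0.037 (SD, n = 3). For the 78 members with at least 50 stretches of 50 bases found in no other gene, the number of those stretches was instead taken as length. On this scale, called per kilobase of unique exon here, the sum was 376, 373 and 368 CPM and the ratio to Trac was 0.99 ± 0.077 (SD, n = 3). The number of stretches differs from the number of bases, by an amount that varies between genes. Trac was still divided by its whole exon length. The ratio of V genes to Trac therefore depended on how length was counted. Reads that overlap the exons of more than 1 gene are set aside as ambiguous in this kind of counting, and 1.05% to 1.10% of all reads of a library were in that class. How reads that run from a V gene across its join to J and into Trac were mapped and counted was not tested.

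Reads were spread over many members, with none abundant on its own. Reads were assigned to 78, 77 and 76 members in thymus 1, 2 and 3, and 31, 28 and 24 members reached 1 CPM. A level of at least 1 CPM in every library was reached by 20 of the 128 members, or 15.6%, against 26.9% of all 52636 gene identifiers. No reads in any library were assigned to 49 members, or 38.3%, against 41.4% of all gene identifiers. A count of 3, the most that a count of 0 allows, is worth 0.0985 to 0.122 CPM here, and intervals and floors of this kind cover counting error only.

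The 10 members with the most reads took 40.2% ± 1.30 of all V gene reads (SD, n = 3) and the first 20 took 61.3% ± 1.36. In each library Trav14-1 ranked first, with 7.14%, 6.71% and 6.71% of the V gene reads. Its level was 5.64, 5.28 and 5.10 CPM, a mean of 5.34 ± 0.28 CPM (SD, n = 3). Of the members, 7 stood among the 10 highest in all 3 libraries (Trav14-1, Trav21-dv12, Trav14-2, Trav3-3, Trav17, Trav13-1 and Trav9-2), and 13 did so in at least 1 library. The upper end of the V gene list was thus much alike in the 3 thymi.

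**Figure D1:**
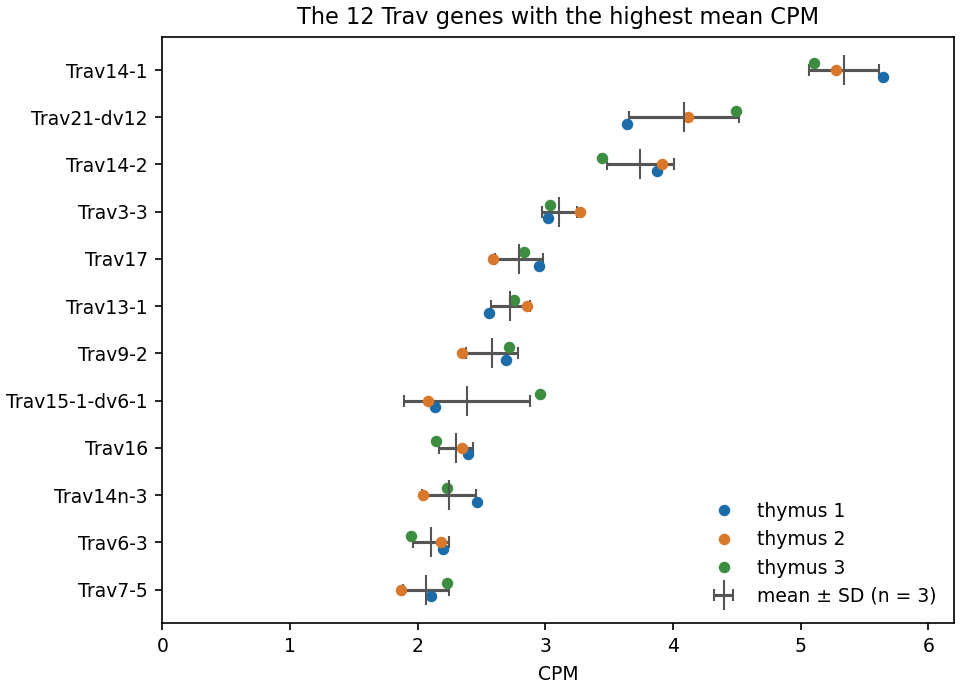
The 12 Trav genes with the highest mean level: x axis, CPM after TMM scaling; coloured points, the 3 thymi; grey bars, mean ± SD (n = 3). Trav14-1 lies between 5.10 and 5.64 CPM, above every value of the other members, and Trav15-1-dv6-1 has 1 thymus, the third, at 2.96 CPM apart from values of 2.13 and 2.08 CPM.

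Levels of different genes were compared per kilobase of exon. Trav14-1 stood at 14.1, 13.2 and 12.8 CPM per kilobase, with a mean of 13.4 ± 0.69 (SD, n = 3). Trav21-dv12, a dual gene and the only member of its family, stood at 10.1, 11.4 and 12.5 CPM per kilobase, all below the lowest value of Trav14-1. Trav14-2 stood at 10.01, 10.12 and 8.90 CPM per kilobase, below Trav21-dv12 in every thymus but nearly level with it in thymus 1. Trav13-1 (8.23 ± 0.46), Trav17 (8.19 ± 0.55) and Trav3-3 (7.42 ± 0.33 CPM per kilobase) came next, and their ranges overlapped. Trav14n-3 (6.22 ± 0.58) and Trav7-5 (6.13 ± 0.54 CPM per kilobase) were not apart from each other beyond their spread.

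This order did not hold once the number of unique stretches was taken as length. Trav14-2 then came first at 21.05, 21.28 and 18.7 CPM per kilobase of unique exon, followed by Trav13-1 at 17.7 ± 0.99 and Trav14-1 at 16.04 ± 0.83 (SD, n = 3). Trav21-dv12, whose whole sequence was unique, stood at 13.1 ± 1.38 CPM per kilobase of unique exon and moved behind Trav13-4-dv7 (15.2 ± 2.40), Trav3-3 (14.003 ± 0.62) and Trav14n-3 (13.4 ± 1.25). With no shared sequence, Trav21-dv12 still rose from 11.4 CPM per kilobase, whereas Trav17, also wholly unique, went from 8.19 to 8.26. The scale thus also carries an effect of counting stretches in place of bases, and the new order is not one of shared sequence alone. Trav14-2 had 54.4% of its 50-base stretches in no other gene and Trav14-1 had 95.1%.

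By family, Trav14 took the largest share of the reads, 17.4% ± 1.07 (SD, n = 3), through 5 counted members of 9. The families Trav13 (8.84% ± 0.36), Trav6 (8.81% ± 0.32), Trav7 (7.18% ± 0.097), Trav9 (7.06% ± 0.74) and Trav3 (6.86% ± 0.14) followed. Trav21-dv12 alone made up 5.25% ± 0.65 of the reads, more than the 9 members of Trav4 together (3.66% ± 0.46). Share of reads is not corrected for length or for shared sequence, so this order holds for the counted reads only.

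**Figure D2:**
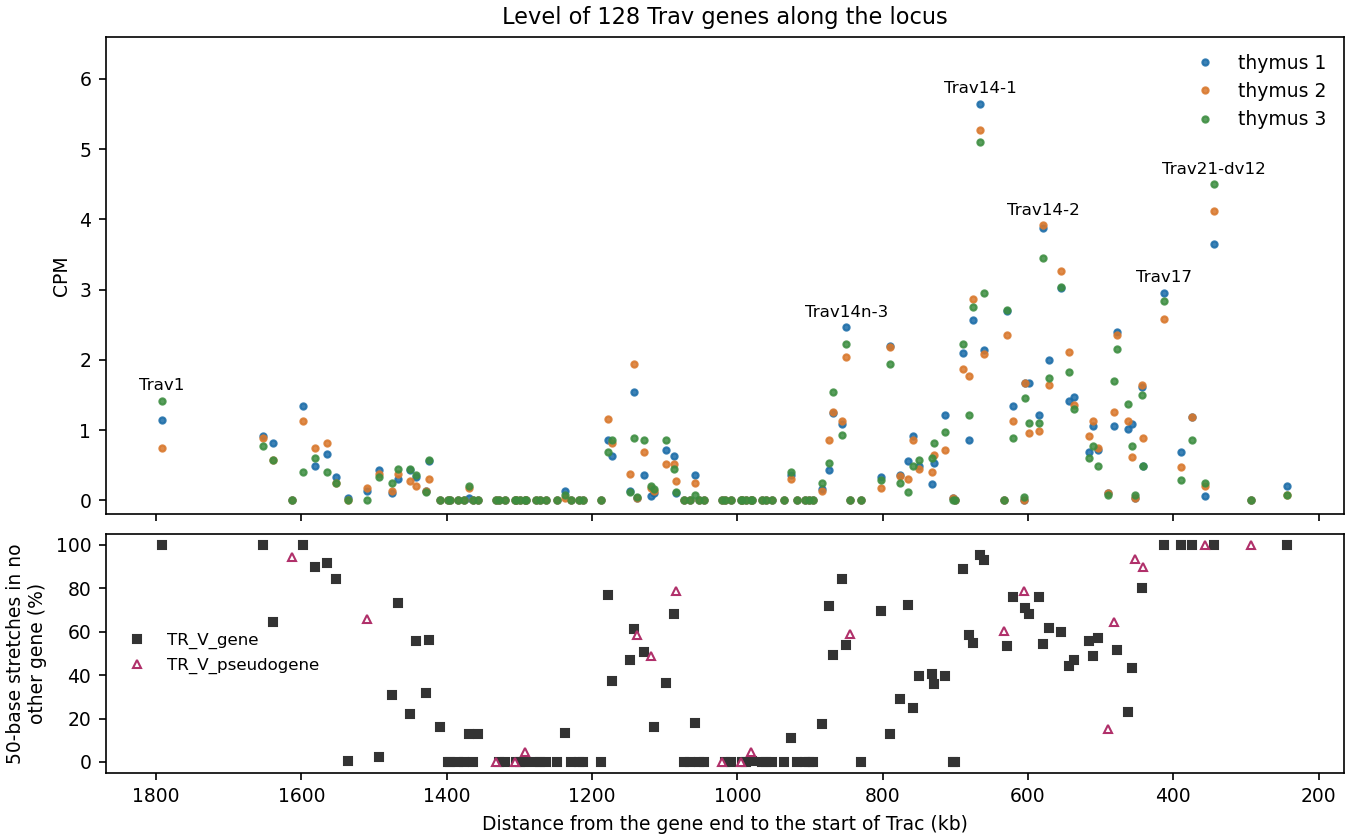
Upper panel, CPM of each of 128 Trav genes in each thymus (coloured points) against the distance from the gene's end to the start of Trac in kb. Lower panel, the percentage of each gene's 50-base stretches found in no other gene's transcripts, for 108 TR_V_gene (squares) and 20 TR_V_pseudogene (triangles) members. The 2 long runs of genes at 0 CPM lie where this percentage is at or near 0.

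Whether a member was counted at all went with how much of its sequence occurs elsewhere. For every member the share of 50-base stretches of its transcripts that occur in no other gene's GENCODE M21 transcript was computed. For 41 members this share was 0, and 40 of these were at 0 reads in all libraries. The exception was Trav6-6, which had 1, 1 and 0 reads. Of the 56 members with a share of at most 20%, 45 were at 0. All 59 TR_V_gene members above 20% had reads in every library, so every one of the 39 TR_V_gene members at 0 had a share of at most 20%.

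The members at 0 fell in blocks. The longest runs of neighbouring members at 0 were 14 genes from Trav14d-1 to Trav3d-3 and 14 genes from Trav14n-1 to Trav3n-3, which are the same stretch of the locus in its d and n copies. Of the 42 members that matched another member with no difference over the compared bases, 40 were at 0. Across the 128 members the Spearman correlation of the unique share with the mean CPM per kilobase was 0.72, and across the 108 TR_V_gene members 0.83. Only reads that map to 1 place are counted, so levels at or near 0 without unique sequence were largely set in advance. Above a share of 20% the medians differed little. They were 1.79 ± 0.21 CPM per kilobase up to 50%, 2.05 ± 0.10 up to 80% and 2.08 ± 0.27 beyond (SD, n = 3). The correlations therefore do not show a level that climbs steadily with the unique share. All these values are descriptions across genes of the same 3 libraries, and genes are not independent replicates. A member at 0 with no unique stretch was not measured by these counts, and its level is unknown.

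**Figure D3:**
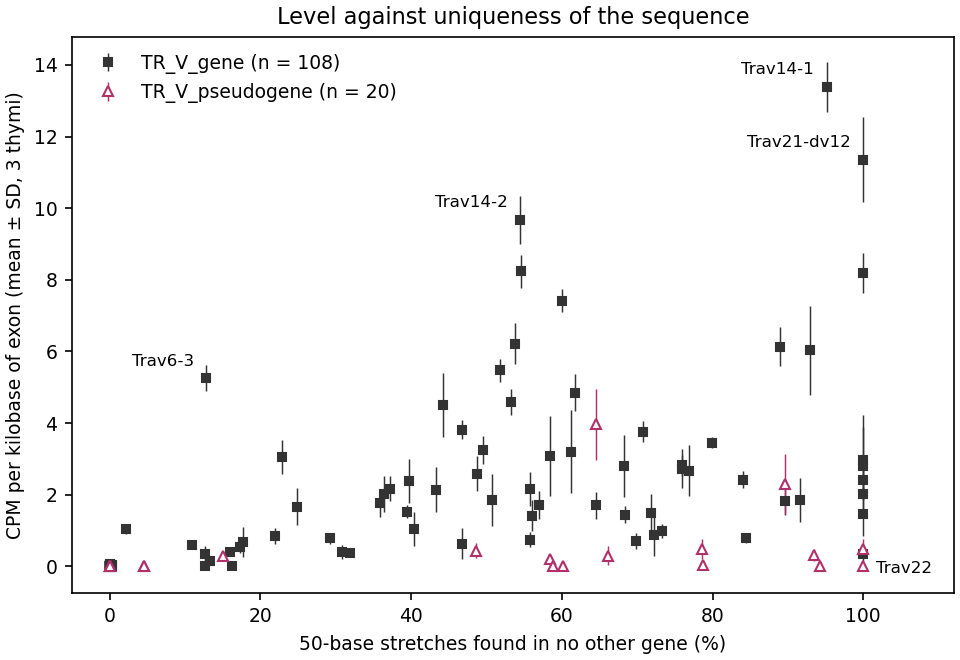
Mean level in CPM per kilobase of exon (± SD, 3 thymi) against the percentage of 50-base stretches found in no other gene, for 108 TR_V_gene (squares) and 20 TR_V_pseudogene members (triangles). The points at 0% lie at or next to 0, whereas members at 100% range from Trav22 at 0 to Trav21-dv12 at 11.4 CPM per kilobase.

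Trav11 is the plainest case. It is the V gene of the invariant receptor of natural killer T (NKT) cells. The same 120 bases near the 3′ end of Trav11 (chr14:53519739-53519858), Trav11d (chr14:52824793-52824912) and Trav11n (chr14:53135558-53135677, all GRCm38, plus strand) are shown for that reason, with differences from Trav11 in capitals:
Trav11: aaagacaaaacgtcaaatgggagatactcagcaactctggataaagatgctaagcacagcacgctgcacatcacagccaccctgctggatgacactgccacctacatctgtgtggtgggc
Trav11d: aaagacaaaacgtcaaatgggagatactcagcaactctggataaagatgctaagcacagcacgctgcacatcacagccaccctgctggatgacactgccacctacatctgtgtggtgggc
Trav11n: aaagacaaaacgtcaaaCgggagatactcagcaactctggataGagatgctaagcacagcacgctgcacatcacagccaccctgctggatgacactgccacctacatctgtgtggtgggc
Trav11 and Trav11d had identical letters here and both were at 0 reads in all 3 thymi. Trav11n, annotated as a pseudogene, differed at 2 bases and had 3, 8 and 3 reads (0.16 ± 0.094 CPM, SD, n = 3). With no unique stretch in either functional copy, the V gene of NKT cells was not measurable in these counts. Transcripts of the NKT cell markers Zbtb16 and Tbx21 were present at means of 3.19 and 3.04 CPM.

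The copies of a gene differed widely in their reads. The 55 members without a letter held 81.8% of the V gene reads, the 39 d members 7.55% and the 34 n members 10.7%. Among 31 genes present in all 3 forms, the form without a letter had the most reads in 26, the n form in 4, the d form in 0, and in 1 all forms were at 0. In 16 of the 31 both the d and the n form were at 0 while the form without a letter was counted. The 26 includes genes where only the form without a letter had unique sequence. Likewise the 4 include Trav11 and Trav6-6, where only the n form had any, and Trav13-3, with 15 reads in all against 8. These are therefore counts of assigned reads and do not rank the copies by RNA.

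Copies with enough unique sequence could be read side by side. For Trav14-3 the form without a letter had 33, 18 and 19 reads, Trav14d-3-dv8 had 47, 57 and 22, and Trav14n-3 had 75, 60 and 55. Trav14n-3 was the highest of the 3 in every thymus, and the means were 2.14 ± 0.62, 3.20 ± 1.16 and 6.22 ± 0.58 CPM per kilobase (SD, n = 3). Their unique shares were 43.3%, 61.2% and 53.8%. Trav16 had 73, 69 and 53 reads, Trav16n 38, 37 and 38, and Trav16d-dv11 19, 24 and 21, an order that was the same in every thymus. Their means were 5.47 ± 0.31, 3.25 ± 0.40 and 2.16 ± 0.35 CPM per kilobase (SD, n = 3), with unique shares of 51.8%, 49.5% and 37.2%. Per kilobase of unique exon Trav16 was still the highest in every thymus, at 11.97 ± 0.69, but Trav16n (6.61 ± 0.81) and Trav16d-dv11 (6.76 ± 1.09) no longer differed beyond their spread, and the d form was above the n form in thymus 2. On that scale Trav14n-3 also stayed the highest of its 3 forms, at 13.4 ± 1.25 against 5.67 ± 1.65 for Trav14-3 and 5.86 ± 2.13 for Trav14d-3-dv8.

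For Trav8-2 all forms were more than 60% unique. Trav8-2 had 32, 37 and 42 reads, Trav8d-2 26, 34 and 17, and Trav8n-2 13, 25 and 13, with means of 3.97 ± 0.99, 2.67 ± 0.71 and 1.47 ± 0.54 CPM per kilobase (SD, n = 3). The n form was the lowest of the 3 in every thymus, and Trav8-2, the highest in every thymus, is the one annotated as a pseudogene. For Trav6-6 the forms cannot be ranked. Trav6n-6, 68.4% unique, had 19, 15 and 11 reads. Trav6-6 had 1, 1 and 0 reads and Trav6d-6 had 0 in every thymus, but both were 0% unique, so their levels are unknown.

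**Figure D4:**
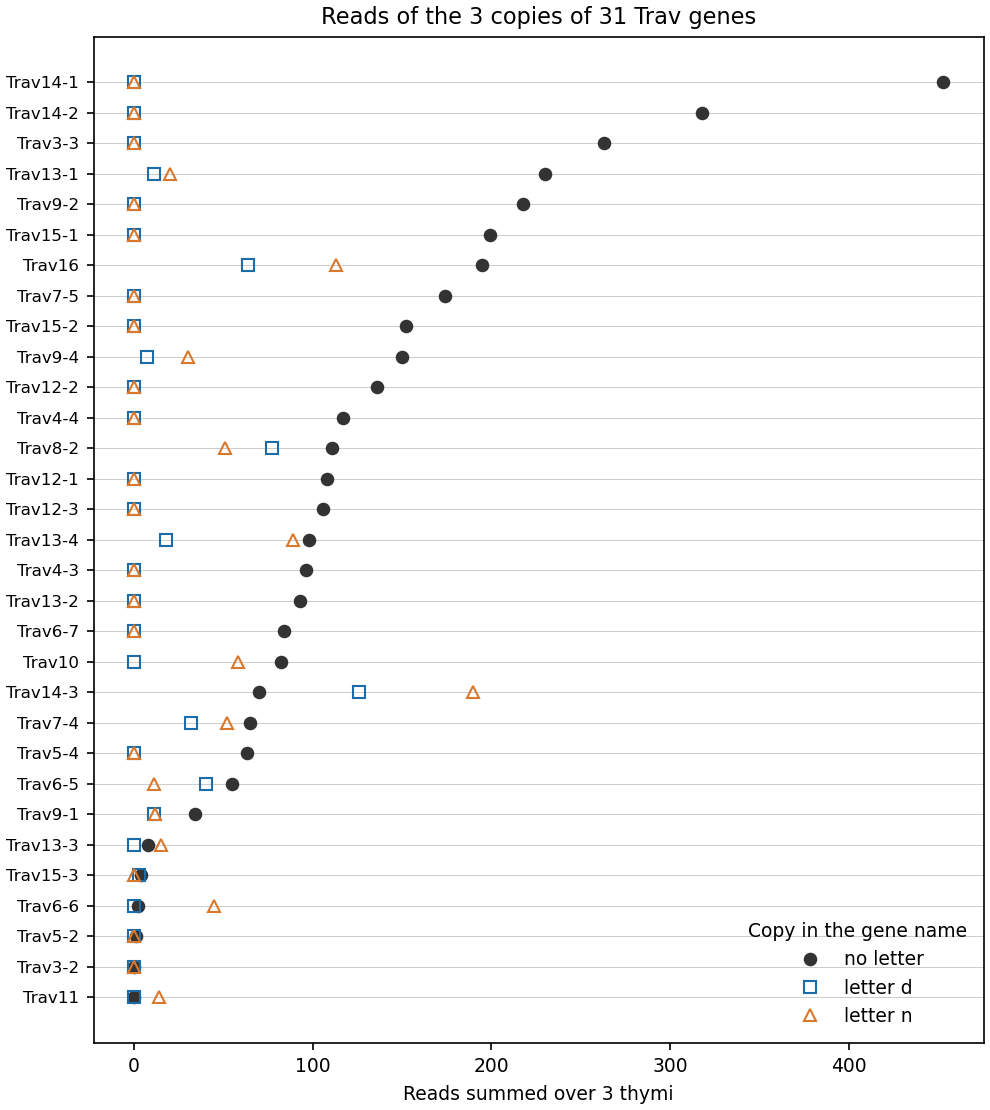
Reads summed over the 3 thymi (x axis) for the forms without a letter (filled circles), with d (squares) and with n (triangles) of 31 Trav genes, 1 gene per line. In 16 of the 31 lines the d and n symbols lie at 0 while the circle does not, and in 4 lines, Trav14-3 among them, the triangle lies farthest right.

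The genes near the J segments carried most of the reads. Ordered by position, the 43 members nearest Trac held 71.8% of the V gene reads, the 43 in the middle 18.4% and the 42 farthest away 9.76%. At 0 reads in all libraries were 3, 22 and 24 of them. The median over the nearest 43 was 2.77, 2.68 and 2.17 CPM per kilobase, and the other medians were 0. Across all 128 members the Spearman correlation of distance with CPM per kilobase was -0.43, but distance also went with the unique share (-0.33), since the d and n stretches lie in the far and middle parts.

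Among functional genes that were at least 50% unique the difference was smaller and still present in each thymus. The 10 such genes farthest from Trac had medians of 1.80, 1.76 and 1.34 CPM per kilobase, the 8 in the middle 2.11, 2.34 and 1.999, and the 23 nearest 3.93, 4.17 and 3.42. The nearest group was 2.18, 2.37 and 2.56 times the farthest in thymus 1, 2 and 3, a mean ratio of 2.37 ± 0.19 (SD, n = 3). Single genes overlapped between the groups, since those near Trac ran from 0.33 to 13.4 CPM per kilobase and those farthest from 0.75 to 2.98. Reaching 1 CPM in every library were 13 of the 23 near genes, 1 of the 8 in the middle and 0 of the 10 far ones. Distance and level had a Spearman correlation of -0.36 across these 41 genes and -0.071 across the 15 that were at least 80% unique. Among those 15 the 8 nearest had a median 2.82, 2.51 and 4.69 times that of the 6 farthest, a mean ratio of 3.34 ± 1.18 (SD, n = 3). Functional genes without a letter, taken at any unique share, had a smaller ratio of 1.46, 1.39 and 1.90, with 35 near and 7 far genes (mean 1.59 ± 0.28). There the 4 genes in the middle had a lower median (0.74 ± 0.13 CPM per kilobase) than the far ones (1.90 ± 0.37), so the parts were not in order of distance. With pseudogenes included, the median of the 7 far members at least 80% unique was 0.72 ± 0.087 times that of the 12 near ones (SD, n = 3), so the gap depended on which members were taken.

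**Figure D5:**
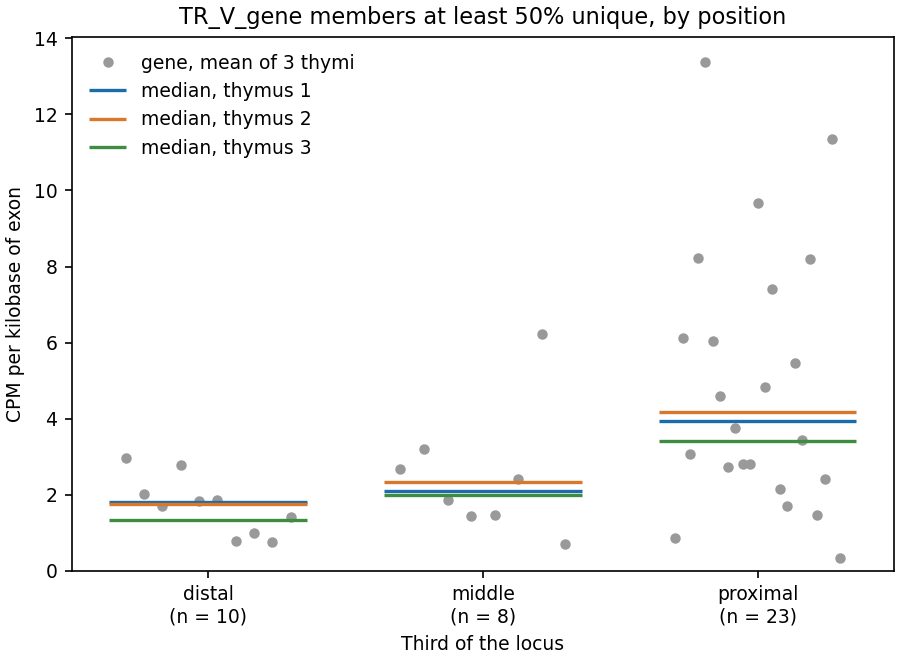
Mean CPM per kilobase of exon of the 41 TR_V_gene members that were at least 50% unique (grey points, in order of position), by their place in the locus, with the median of each thymus as a coloured line. The lines of the proximal genes lie at 3.42 to 4.17, those of the distal genes at 1.34 to 1.80, and the points of the groups overlap.

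Next to Trac stand 7 single-member families, Trav17 to Trav23, whose whole sequences were unique, so that their levels can be read without the limit above. Trav21-dv12 was counted at 111, 121 and 111 reads and Trav17 at 90, 76 and 70. Trav19 followed with 36, 35 and 21 reads and Trav18 with 21, 14 and 7. Trav23, the member nearest the J segments, had only 6, 2 and 2 reads. Per kilobase these genes therefore ran from 0.33 ± 0.20 CPM for Trav23 to 11.4 ± 1.19 CPM for Trav21-dv12 (SD, n = 3) within about the same part of the locus. The pseudogene Trav20 had 2, 6 and 6 reads and the pseudogene Trav22 none.

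At the far end, Trav1, the V gene of the invariant receptor of mucosal-associated invariant T cells, was counted at 35, 22 and 35 reads, or 1.15, 0.75 and 1.42 CPM. Its mean of 2.98 ± 0.91 CPM per kilobase (SD, n = 3) was the highest among the 10 far functional genes above. Trav5-1 came next at 2.79 ± 1.43, within its spread. Trav1 was above Trav5-1 in thymus 3 only (3.82 against 1.18), and below it in thymus 1 (3.10 against 3.92) and 2 (2.02 against 3.28). Per kilobase of unique exon, Trav5-1 (3.26 ± 1.67) and Trav3-1 (3.02 ± 0.66) were above Trav1 (2.99 ± 0.91), within their spread. Trav2 had 28, 26 and 19 reads, or 2.03 ± 0.18 CPM per kilobase.

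Most dual Trav-dv genes were counted. Of the 10 members with such names, 8 were counted and 5 reached 1 CPM in every library. Of the 118 other members, 71 were counted and 15 reached 1 CPM in every library. The median unique share was 47.8% among the dual members and 33.9% among the others, and its part in these counts was not tested. Together they held 14.02 ± 0.47 CPM, or 18.0% ± 0.92 of the V gene reads (SD, n = 3). Beside Trav21-dv12 the highest were Trav15-1-dv6-1 with 65, 61 and 73 reads and Trav15-2-dv6-2 with 61, 48 and 43. Trav4-4-dv10 had 45, 40 and 32 reads, Trav13-4-dv7 31, 33 and 34, and Trav6-7-dv9 32, 33 and 19. The 2 at 0 were Trav15d-1-dv6d-1 and Trav15d-2-dv6d-2, whose unique shares were 12.7% and 0%. Reads of a dual gene joined to an alpha J segment and to a delta segment cannot be told apart in gene counts.

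Pseudogenes contributed 3.51% ± 0.78 of the V gene reads (SD, n = 3), that is 63, 92 and 74 reads. Of the 20, 10 were at 0 in all libraries, and 4 of these 10 (Trav4-1, Trav15n-3, Trav3-2 and Trav22) were more than 20% unique. Among members at least 50% unique, the median of the 12 pseudogenes was 0.081 ± 0.0086 times that of the 41 functional genes (SD over 3 within-library ratios). Trav8-2 stood out with 1.05, 1.26 and 1.70 CPM, and it was the only pseudogene at 1 CPM or more in every library. Trav12-4 followed with 15, 26 and 12 reads, and Trav20, Trav11n and Trav9n-1 had between 2 and 8 reads per library.

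The spread of single V genes between thymi was close to that of all genes of like abundance. The filter on low counts was passed by 48 of the 128 members, 2 of them pseudogenes, so what follows holds for those only. Their median coefficient of variation was 18.5%, and the median over all genes in the same range of abundance was 17.1%. The coefficient expected from the mean count by counting error had a median of 17.8%. A coefficient taken from so few libraries has a median below the expected one, so 18.5% and 17.8% are unlike measures. They cannot show how far the spread exceeds counting. The variability test of edgeR's quasi-likelihood fit, one-sided and adjusted by Benjamini and Hochberg over 16548 genes, called 0 of the 48, against a background of 0.0604% of all genes tested. By its unadjusted p, 1 member (Trav5-1, p = 0.0307 in edgeR) was below 0.05, against 4.42% of all genes tested, and edgeR's negative binomial goodness of fit and DESeq2's dispersion outliers also called 0, against 0.737% and 0.489% of all genes.

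Against counting noise alone, edgeR's goodness of fit at dispersion 0 called 3 of the 48 members, or 6.25%, below the background of 43.4% of all genes tested and of 14.7% among the 5013 genes in the same abundance range. Trav5-1 had 41, 33 and 10 reads (1.35, 1.12 and 0.41 CPM; adjusted p = 0.00195 in edgeR), with thymus 3 the low one. Trav14d-3-dv8 had 47, 57 and 22 reads (adjusted p = 0.0137 in edgeR), again lowest in thymus 3. Trav12-1 had 26, 52 and 30 reads (adjusted p = 0.0189 in edgeR), with thymus 2 the high one. Without thymus 1 the count stayed at 3, with Trav1 in place of Trav12-1, without thymus 2 it was 1 (Trav5-1) and without thymus 3 it was 1 (Trav12-1).

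Between libraries the levels of the 48 members went together. The Pearson correlation of their log2 levels was 0.88 between thymus 1 and 2, 0.86 between 1 and 3 and 0.86 between 2 and 3, given as descriptions across genes that share libraries and length. Of the 48, 18 were highest in thymus 1, 17 in thymus 2 and 13 in thymus 3.

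Genes that assemble the alpha chain, or are known to act on its locus, made a list of 16 with Trac, of which 16 passed the filter. Per kilobase of exon Rag1 and Rag2, the recombinase, stood at 616 ± 25.6 and 96.1 ± 14.3 CPM, and Dntt, the terminal transferase that adds bases at the joins, at 749.7 ± 88.7 CPM (SD, n = 3), all above the 13.4 CPM of Trav14-1. Bcl2l1, a survival gene of double-positive cells, stood at 37.8 ± 1.66 CPM per kilobase (SD, n = 3). Runx1, a factor of the alpha enhancer, stood at 8.99 ± 0.52 CPM per kilobase, below Trav14-1. That order comes from its exon length of 12025 bases. In CPM not divided by length Runx1 was far higher, at 108 ± 6.27 against 5.34 ± 0.28 for Trav14-1 (SD, n = 3). None of the 16 was called by edgeR's quasi-likelihood test, 0 had an unadjusted p under 0.05, DESeq2 named 0 as outliers, and 13 exceeded counting noise by edgeR's goodness of fit, against 81.4% of the 2446 genes in the same abundance range.

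Reads on the strand opposite to the V genes were few, 67, 64 and 57, or 2.71%, 2.70% and 2.94% of the reads on both strands (Wilson 95% intervals between 2.12% and 3.80%). Over all genes the same share was 3.37%, 3.40% and 3.44%.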

How the data were processed

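RNA-seq of 3 thymi was deposited by the authors as raw read counts per gene in 3 columns (either strand, gene strand, reverse strand), per the file layout that of STAR's gene counting, which counts uniquely mapped reads only. Per the submitters' processing notes the tools were STAR 2.5.3a and DESeq2 and the build GRCm38, and per the labels the library kit was TruSeq Stranded mRNA. For the annotation release, read length and trimming, nothing is given in the sources used here. The reverse-strand column was used, as that kit places a transcript's reads there. Of 52636 identifiers, 52489 matched GENCODE M21 and 147 did not. B230359F08Rik and C920008G01Rik, V genes of this locus by annotation, fall outside the symbol rule and were left out.

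Counts were scaled with TMM in edgeR 4.0.16 (R 4.3.3; factors 1.00, 1.03 and 0.971), after setting aside the rows that name no gene. Genes were filtered with filterByExpr (minimum count 10, minimum total 15), which left 16548, and tested with edgeR's robust quasi-likelihood fit (intercept only), its goodness of fit, and DESeq2 1.42.0, at an adjusted p of 0.05. Tested on simulated counts of the same 16548 genes, where single libraries carried changes, the quasi-likelihood fit found 42 of 67 changes of 2-fold, 65 of 67 of 4-fold and 65 of 66 of 16-fold, with 5 false calls. Every simulated gene had exactly the dispersion of the trend, without the scatter about it that real genes have. The recovery is therefore that of an easier setting, and recovery in the real data was not tested. Uniqueness was computed on transcripts, not on the genome, for stretches of 50, 75 and 100 bases on either strand. Exon length is the union of a gene's exons, and length of unique exon is the number of unique stretches, not of bases.

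Named were the 12 members highest in CPM, the 8 highest per kilobase, all dual members, the 5 highest pseudogenes, the 5 with most opposite-strand reads, the ends of the locus, and tested members of the highest coefficient of variation at 10 CPM or more or called variable, of which there were none. All other members named, such as Trav5-1, Trav12-1, Trav11, Trav6-6 and the copies, were chosen after their values were seen. The members and lists were chosen with earlier results of these data known. Alternatives were the unstranded column, other scalings, filters, thresholds, lengths and each library left out. The values of 1 gene of the assembly list are not reported here.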

Additional observations from a re-analysis of the deposited data

Results flagged for a closer look

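Reads on the strand opposite to the gene, which the levels above leave out, were above 3, the most that a count of 0 allows, in every library for 3 members. Trav13n-4 had 8, 9 and 13 such reads, 30 in all, beside 33, 33 and 23 on its own strand. Trav9-2 had 10, 9 and 4, 23 in all, beside 82, 69 and 67. Trav22, a pseudogene at 0 on its own strand in all 3 thymi, had 11, 6 and 6 opposite-strand reads, 23 in all. Trav22 lies within the span of the annotated antisense gene Gm43647, which had 19, 13 and 16 reads of its own. The part of such genes in the opposite-strand reads was not tested.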

How the results depend on the processing

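No paired analysis was possible because the labels give a single group. The summed V gene level stayed at 77.9 CPM with DESeq2 size factors and was 81.4 CPM in the unstranded column, and leaving out each library gave 76.5 to 80.002 CPM. With library totals it was 78.0 CPM, but its SD was 3.59 against 1.59 with TMM. The 20 members at 1 CPM or more in every library became 38 at 0.5 CPM and 10 at 2 CPM. It was 20 to 23 in the unstranded column and under the other scalings, and 21 to 27 with a library left out. The 3 members beyond counting noise became 0 among the 1 member with a mean of at least 5 CPM, and 1 to 3 with a library left out. The ratio of the far to the near median was 0 over all members, 0.291, 0.296 and 0.299 per kilobase of unique exon for stretches of 50, 75 and 100 bases, 0.422 among members at least 50% unique and 0.725 among those at least 80% unique. The ratio of the pseudogene to the functional median was 0 over all members, 0.178 in the unstranded column, 0.106 per kilobase of unique exon, 0.0806 at 50% unique or more and 0.143 at 80% or more. The subsets at 50% unique, and the one at 80% for pseudogenes, were chosen after the data were seen. In the comparison by position, the limits to functional genes and to genes without a letter were not planned either. Of 174 values of the 29 named members under scalings, the unstranded column and left-out libraries, 169 moved by less than 1 SD, and the other 5, all in the unstranded column, were Trav13n-4, Trav15-2-dv6-2, Trav22, Trav9-2 and Trav9n-1. No member was called variable by the quasi-likelihood test under any alternative run. No member exceeded 172 reads in a library, and how large a change of a single member must be to be called at such depths was not tested. Identical copies are not resolved at any depth.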
